A study of Mus musculus with 4 samples.

Results

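The Toll-like receptor and NF-kB pathway was followed through 10 genes. They were chosen by name, with earlier results of these data known. They are the receptor genes Cd14, Tlr2, Tlr4 and Tlr7, the adaptor gene Myd88, the NF-kB subunit genes Nfkb1, Rela and Relb, and the inhibitor genes Nfkbia and Tnfaip3. All 10 were found among the 35427 genes that the deposited transcripts could be matched to. Toll-like receptors sense microbial products and molecules of damaged cells, and most of them signal through the adaptor encoded by Myd88 to a kinase complex that marks the inhibitor encoded by Nfkbia for degradation. NF-kB dimers then enter the nucleus and switch on cytokine genes, together with Nfkbia and Tnfaip3, which shut the signal down again. In the brain, microglia are a main site of Toll-like receptor expression, whereas the NF-kB subunits are made in most cell types, neurons included.

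RNA was taken from the hippocampus of 4-month-old C57BL/6J animals of the P2RY12CreER and Rpl22HA cross, that is, an inducible Cre driven by a microglial promoter and the RiboTag allele whose tagged ribosomal protein it turns on. All mice, controls included, had been fear conditioned. The control group then slept for 6 h, and the sleep-deprived group was kept awake over the same 6 h. Each group had 2 files, and each file pooled 2 mice. The design text calls the files technical replicates. How far the pulldown enriched microglial RNA was not measured, since no input RNA was analysed here. Markers of neurons and other glia held more reads than those of microglia. In control, 16 microglial markers summed to 2478 reads, 8 neuronal to 38945, 7 oligodendrocyte to 52750 and 8 astrocyte markers to 24528. In sleep deprivation these sums were 6473, 30850.5, 30987 and 12108.5 reads. The groups rest on the sample titles, because the treatment entry is the same (sleep deprivation) in all 4. The question of the design is how RNA recovered from tagged ribosomes differed between sleep loss and sleep after learning.

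The files held 14877011 and 14833320 estimated reads for control and 14473030 and 14431647 for sleep deprivation. Within a group the files were very close (chi-square per degree of freedom 0.335 in control and 0.227 in sleep deprivation, against 69.1 to 69.3 between groups). Since they differed by less than sampling noise, both files of a group count as 1 sample. Every comparison below is therefore 1 library against 1 library, with no replicate check and no p-value. A ratio is scaled reads in sleep deprivation divided by those in control, and the range after it is its 95% counting interval. These intervals cover counting error only, not differences between mice. A gene was called higher or lower at a ratio of at least 2-fold with an interval that left out 1. Among 14907 genes with enough reads (called measured here), 4.27% were higher and 5.64% lower by this rule, and the median log2 ratio was −0.01.

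The 30-base stretches that follow hold the matches to the NF-kB binding consensus found in the windows before the RefSeq starts of 3 of the genes, and are shown because Tlr2 was called higher and the feedback genes Nfkbia and Tnfaip3 were not. They are RefSeq sequences of GRCm38.p6, written 5′ to 3′ on the strand of the gene (the minus strand in each case), and capitals mark the match to the consensus of 10 bases, searched on both strands.
Tlr2, chr3:83841762-83841791, match from 173 to 163 bases before the start: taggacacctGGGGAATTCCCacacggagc
Tnfaip3, chr10:19015516-19015545, match from 125 to 116 bases before the start: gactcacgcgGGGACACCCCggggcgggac
Tnfaip3, chr10:19015411-19015440, match from 12 to 3 bases before the start: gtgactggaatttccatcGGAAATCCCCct
Nfkbia, chr12:55492657-55492686, match from 29 to 20 bases before the start: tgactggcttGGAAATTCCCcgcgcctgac
The Tlr2 stretch of 11 bases holds 2 overlapping matches. Both Tnfaip3 stretches, and the last bases of the Tlr2 stretch, lie inside the GENCODE bounds of these genes given below, which reach further upstream than the RefSeq starts used here. The windows searched were the 250 bases before each RefSeq start, and 5 of the 10 genes had such a window (Tlr2, Myd88, Tnfaip3 with 2 starts, Nfkbia and Rela). No match lay in the windows of Myd88, Rela or the second Tnfaip3 start. Of all 32851 windows of that length, 2382 (7.25%) held the consensus. A match is a description of the letters only, and binding was not measured.

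The 10 genes separated by role. Of the 4 receptor genes, 3 were called higher (Cd14, Tlr2 and Tlr7), beside 4.27% of all measured genes, and Tlr4 had too few reads to be measured. Myd88 lay just under 2-fold, and the 5 genes of the NF-kB subunits and inhibitors all lay between 0.903-fold and 1.38-fold. None of the 10 was called lower. Per transcript length the 3 called receptor genes had the lowest control levels of the measured members. Cd14 and Tlr2 counted as measured only through the sleep-deprived library, so such a gene could be called higher but hardly lower, and the count of 3 is a description.

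**Figure D1:**
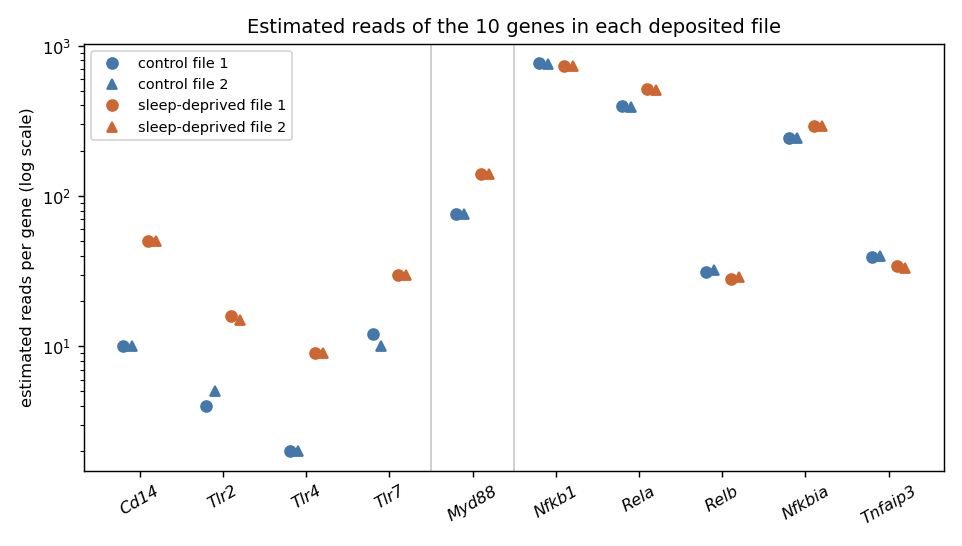
Estimated reads per gene (log scale) of the 10 genes in each of the 4 deposited files, with control in blue, sleep deprivation in orange, circles for file 1 and triangles for file 2. The receptor genes at the left lie between 2 and 50 reads, with Tlr4 too rare to be measured, and Nfkb1 lies at 732 to 762 reads. Because the 2 files of a group are nearly the same, the lack of overlap between groups, seen for all 10 genes, adds nothing to a ratio.

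Positions are those of GENCODE M21 on GRCm38. Cd14, on chromosome 18 (36725067 to 36726798, minus strand), encodes a co-receptor that hands bacterial lipopolysaccharide to Tlr4. Salmon placed 10 reads on it in each control file and 50 reads in each sleep-deprived file. The groups did not overlap, and the sleep-deprived level was 5 times that of control in reads. Because the 2 files of a group are nearly the same, a lack of overlap adds nothing to a ratio. The reads of the uncalled genes Nfkb1, Relb, Nfkbia and Tnfaip3 did not overlap between groups either. In CPM, which is reads scaled by library size, Cd14 was at 0.664 in control and 3.53 in sleep deprivation, a ratio of 5.32 (2.67 to 11.8). All of its reads were placed on the coding transcript Cd14-201, and none on its retained intron model.

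Tlr2, on chromosome 3 (83836272 to 83841767, minus strand), encodes the receptor for bacterial lipoproteins. Its files held 4 and 5 reads in control and 16 and 15 in the sleep-deprived files, again without overlap. The ratio was 3.67 (1.37 to 17.5), at 0.299 and 1.10 CPM. Its wide interval reflects the 4 or 5 control reads. Tlr7, on chromosome X (167304929 to 167330558, minus strand), encodes an endosomal receptor for single-stranded RNA. The control files held 12 and 10 reads and there were 30 reads in each sleep-deprived file, a ratio of 2.90 (1.41 to 6.42).

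Tlr4, on chromosome 4 (66827584 to 66930284, plus strand), encodes the lipopolysaccharide receptor itself. There were 2 reads in each control file and 9 in each sleep-deprived file. The sleep-deprived files were above the control files here too, but the ratio of 4.79 had an interval of 0.992 to 45.6, and at this depth the gene was not measured. Tlr4 therefore supports no statement on direction.

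Tlr7 showed how much the unit mattered for a rare gene. In the sleep-deprived files 2 and 1 of its 30 reads were placed on Tlr7-206, a noncoding model of 261 bases. Because TPM, the level per transcript length, divides by the effective length, these few reads gave 10.9 and 5.48 TPM, against 1.05 and 1.09 TPM for the coding Tlr7-201 with its 28 and 29 reads. The gene's ratio was 27.9 from summed TPM and 21.9 with the transcript length offset, against 2.90 from counts. For Tlr7-201 alone the ratio was 2.76 (1.31 to 6.03).

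Myd88, on chromosome 9 (119335934 to 119341411, minus strand), encodes the adaptor shared by Tlr2, Tlr4 and Tlr7. Each control file held 76 reads and each sleep-deprived file 141, with no overlap. The ratio was 1.98 (1.48 to 2.65), at 5.04 and 9.96 CPM, so it missed the 2-fold line although its interval left out 1. It was called higher from summed TPM (2.35) and with the transcript length offset (2.02). The coding model Myd88-201 on its own was called higher, with 63.6 and 64.9 reads in control and 132 and 128 in sleep deprivation, a ratio of 2.15 (1.59 to 2.96). The retained intron model Myd88-203 held 12.4 and 11.1 reads in control and 8.57 and 13.1 in sleep deprivation, so its files overlapped between groups. Of the exon bases of Myd88, 11.3% overlap Acaa1a on the other strand, and Acaa1a itself had a ratio of 2.10 (1.97 to 2.24). No strand setting for the counting is named in the sources used here, and the part of these reads in the Myd88 value was not tested.

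**Figure D2:**
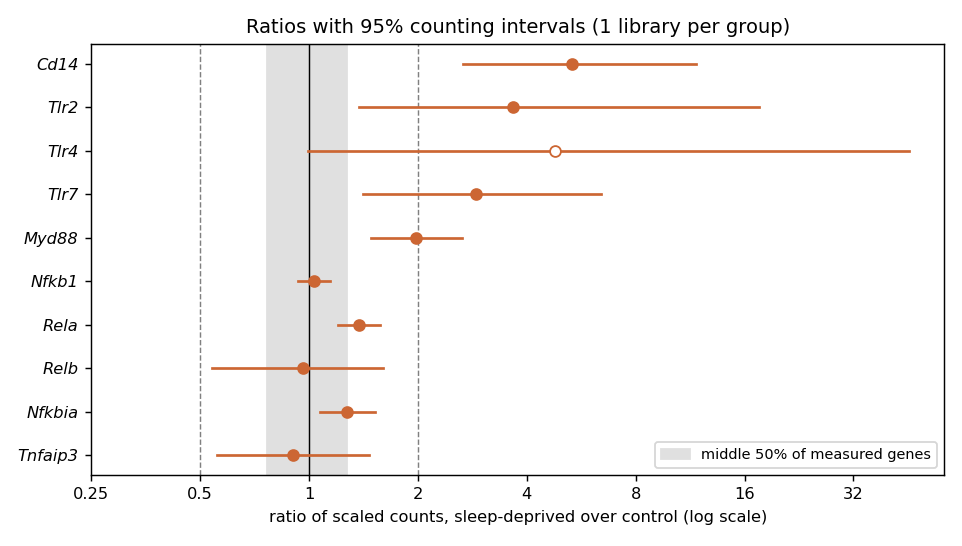
Ratio of scaled counts, sleep-deprived over control (log scale), for the 10 genes, with bars for 95% counting intervals, dashed lines at 2-fold, a grey band for the middle 50% of measured genes and an open symbol for the unmeasured Tlr4. Cd14 at 5.32, Tlr2 at 3.67 and Tlr7 at 2.90 lie beyond 2-fold, Myd88 lies at 1.98, and the NF-kB subunit and inhibitor genes lie between 0.903 and 1.38.

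None of the subunit and inhibitor genes was called, and Nfkb1, Rela and Nfkbia among them were much better covered than the receptor genes. Nfkb1, which encodes p105 and the p50 subunit processed from it, is on chromosome 3 (135584655 to 135691547, minus strand). Its reads numbered 762 and 750 in control and 732 and 736 in sleep deprivation. Once scaled for library size, these gave 50.2 and 51.9 CPM, a ratio of 1.03 (0.933 to 1.15). Rela, on chromosome 19 (5637483 to 5648130, plus strand), encodes the p65 subunit that carries the activation domain. Reads on Rela numbered 395 and 391 in control and 511 and 507 in sleep deprivation, a ratio of 1.38 (1.21 to 1.58). Its groups did not overlap and its interval left out 1, but the ratio did not reach 2-fold. Relb, on chromosome 7 (19606217 to 19629438, minus strand), encodes a subunit of the alternative NF-kB pathway. The files held 31 and 32 Relb reads in control and 28 and 29 in sleep deprivation, a ratio of 0.963 (0.540 to 1.60).

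The inhibitors are also classical NF-kB target genes, and neither was called. Nfkbia, on chromosome 12 (55489410 to 55492647, minus strand), encodes IkB-alpha, which holds NF-kB in the cytoplasm. It held 244 and 242 reads in control and 290 and 292 in sleep deprivation, a ratio of 1.27 (1.07 to 1.52). Tnfaip3, on chromosome 10 (19000910 to 19015657, minus strand), encodes A20, a ubiquitin-editing enzyme that ends the signal. The Tnfaip3 total was 39 and 40 reads in control and 34 and 33 in sleep deprivation, a ratio of 0.903 (0.556 to 1.47). For Relb and Tnfaip3 the intervals are wide, and a difference within them was not detectable at this depth. Of the genes with an NF-kB consensus match shown above, Tlr2 was thus the called one, and Nfkbia and Tnfaip3 were not.

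Per transcript length the order of the genes was nearly the same in both libraries. In TPM, control had Nfkb1 at 37.5, Rela at 23.1, Nfkbia at 19.5 and Myd88 at 4.57. Relb followed at 1.61, Tnfaip3 at 1.02, Cd14 at 0.766, Tlr7 at 0.332, Tlr2 at 0.174 and Tlr4 at 0.0557. Neighbours in this order from Relb down to Tlr4, and the pair of Rela and Nfkbia, had overlapping counting intervals. In the sleep-deprived library Rela was first at 42.7 TPM, above Nfkb1 at 36.0, Nfkbia at 29.1 and Myd88 at 10.7. Cd14 came next at 4.77, ahead of Relb at 2.24, without overlap of the intervals (3.54 to 6.28 and 1.49 to 3.24). Tlr7 at 1.07, Tnfaip3 at 1.01, Tlr2 at 0.744 and Tlr4 at 0.312 were last, each overlapping its neighbour. Tlr7 is given here without its 261-base model, but Rela with all of its models. The short retained intron model Rela-203 gave 20.4 and 18.7 TPM of the Rela level in the sleep-deprived files. The coding Rela-201 alone was at 23.0 and 23.3 TPM there, below Nfkb1 and Nfkbia. In control it was at 15.5 and 15.3 TPM, also below both. The counting interval of Rela does not cover this split. TPM in the sleep-deprived library ran higher in general, with a median log2 ratio over all measured genes of 0.22, so its TPM levels are to be read against that shift.

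Under the gene totals, Salmon's estimates differed between transcript models. The 10 genes have 51 annotated transcripts in the files, 26 held reads, and 20 held at least 10 reads in either library. Of these 20, 8 were called higher and 2 lower. Single transcripts were called far more often than gene totals in these files: of all 41161 transcripts with as many reads, 23.4% were higher and 13.6% lower. The counts for the 10 genes are therefore a description. The reads of Tlr2, Tlr4 and Nfkbia all lay on 1 coding model each (Tlr2-201, Tlr4-201 and Nfkbia-201). The models of Nfkb1 moved in opposite directions under a nearly constant total. Nfkb1-203, a coding model with an incomplete start that covers the 3′ part of the gene, held 400 and 399 reads in control and 194 and 200.2 in sleep deprivation, a ratio of 0.525 (0.440 to 0.623). Nfkb1-207, a model marked for nonsense-mediated decay, held 136 and 117 reads in control and none in either sleep-deprived file, which is 39.6-fold lower against a floor of 3 reads, with an interval of the ratio that reaches up to 0.0316. In contrast, the full-length coding model Nfkb1-201 held 65.1 and 110.0 reads in control and 282 and 221 in sleep deprivation, a ratio of 3.06 (2.38 to 3.93). The retained intron model Nfkb1-202 held 37.8 and 30.7 reads in control and 135 and 156 in sleep deprivation, a ratio of 4.49 (3.13 to 6.85).

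These Nfkb1 models differ in where they start, in retained intron sequence and in skipped exons. Nfkb1-203 lacks exon 24 of the 25 exons of Nfkb1-201 (chr3:135589327-135589504, 178 bases), and Nfkb1-207 lacks exon 22 (chr3:135590780-135590846, 67 bases). The junctions are printed from the GENCODE transcripts, 5′ to 3′, with 15 bases on each side and the downstream exon in capitals, because they are the sequences by which Nfkb1-203 and Nfkb1-207 differ from the full-length model near the 3′ end.
Nfkb1-203, exon 24 skipped: atggacaactatgagATGAACTCCGGGATA
Nfkb1-201, exon 24 included: atggacaactatgagGTCTCTGGGGGTACC
Nfkb1-207, exon 22 skipped: gctgccaactggcagGGGACATGAAGCAGC
Nfkb1-201, exon 22 included: gctgccaactggcagGTATTTGACATACTA
Each skipping junction occurs in that model alone among the 10 Nfkb1 models. Of the stretches of 31 bases in each model, 28 of Nfkb1-203, 27 of Nfkb1-207 and 2 of Nfkb1-201 are found in no other Nfkb1 model, so most reads were divided by Salmon's model and not by sequence. The reads themselves were not analysed here. The counting intervals of the models do not cover error in how Salmon divided the reads. The 0 reads of Nfkb1-207 in sleep deprivation are a model estimate and not a measured absence. The estimate for Nfkb1-201 already differed between the control files (65.1 and 110.0 reads) while the gene total did not (762 and 750). Models that start in or after exon 13 held 76.5% and 74.6% of Nfkb1 reads in control and 46.6% and 50.1% in sleep deprivation.

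**Figure D3:**
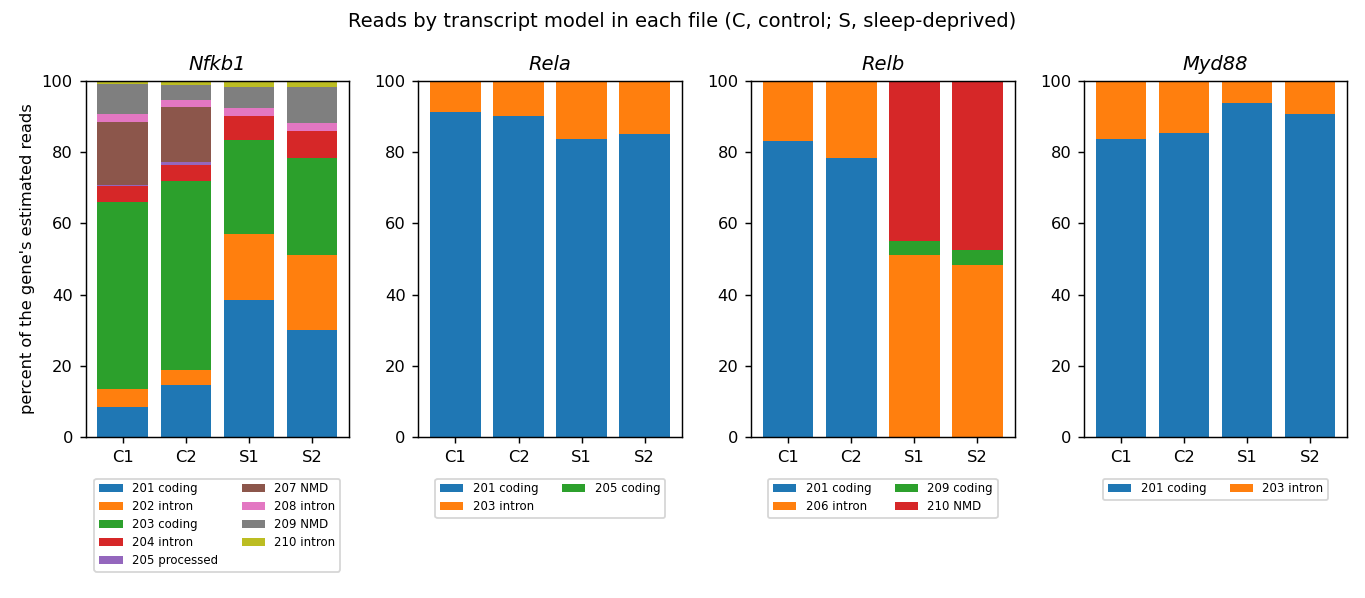
Percent of each gene's estimated reads placed on each transcript model in the 4 files (C1 and C2, control; S1 and S2, sleep-deprived) for Nfkb1, Rela, Relb and Myd88, where intron marks retained intron models and NMD models marked for nonsense-mediated decay. Nfkb1-207 and Relb-201 hold reads only in control, and Relb-210 only in sleep deprivation.

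For Rela, a model annotated as noncoding was called higher, while the coding model Rela-201 was not. Rela-203, a retained intron model of 786 bases, held 33.7 and 38.7 reads in control and 82.7 and 75.2 in sleep deprivation, a ratio of 2.30 (1.56 to 3.57). The coding Rela-201 held 360 and 352 reads in control and 428 and 432 in sleep deprivation, a ratio of 1.29 (1.11 to 1.48). Because Rela-203 is short, it took 31.2% of the gene's TPM in control and 45.8% in sleep deprivation, and only 35 of its stretches of 31 bases are its own. Relb-201, a coding model, held 25.7 and 25.1 reads in control and 0 in sleep deprivation, which is 7.98-fold lower against the floor of 3 reads, with an interval of the ratio up to 0.162. Relb-210, marked for nonsense-mediated decay, held 0 reads in control and 12.6 and 13.8 in sleep deprivation, which is 4.79-fold higher against the same floor, with an interval that starts at 3.53. The retained intron model Relb-206 held 5.25 and 6.94 reads in control and 14.3 and 14.01 in sleep deprivation, a ratio of 2.48 (0.897 to 7.89), and was not called. Relb-201 and Relb-206 have no stretch of 31 bases of their own and Relb-210 has 25, so their values, those at 0 included, are model estimates and not measured absences.

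Retained intron models took 12.5% and 11.8% of Nfkb1 reads in control and 29.0% and 32.5% in sleep deprivation, and 8.54% and 9.90% against 16.2% and 14.8% of Rela reads. For Myd88 the order was the opposite, with 16.3% and 14.6% in control and 6.08% and 9.27% in sleep deprivation. Tnfaip3 had its reads on the coding Tnfaip3-202 (37.2 and 40 in control, 25.1 and 27.5 in sleep deprivation), with 1.82 and 0 reads against 8.87 and 5.52 on its retained intron model Tnfaip3-205. Over all matched transcripts retained intron models took 10.6% of reads in each control file and 13.3% in each sleep-deprived file, and the part of that library-wide difference in the values of these genes was not tested.

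The other genes of the pathway were followed by role in a list of 84 genes, of which 62 were measured. Of these, 7 were called higher and 1 lower, beside 4.27% and 5.64% of all measured genes. Their median log2 ratio was 0.07, beside −0.01 over all measured genes. Of the 62, 54 were called in neither direction. The share called higher was above that of all measured genes and the share called lower was below it, which was not tested. Ticam2 and Irak3, among those called higher, counted as measured only through the sleep-deprived library. Such genes could hardly be called lower, so these counts are a description.

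Of 15 other receptors and co-receptors, 7 were measured, with 2 called higher and 0 lower, beside 4.27% and 5.64% of all measured genes. Tlr13, which senses bacterial ribosomal RNA, was at 1.53 CPM in the control library and 3.75 CPM after sleep loss, a ratio of 2.45 (1.48 to 4.19). Ly86, which encodes the partner protein of the Tlr4 relative Cd180, went from 7.47 CPM to 18.0 CPM, a ratio of 2.41 (1.93 to 3.05). Unc93b1, the chaperone that brings Tlr7 to endosomes, had a ratio of 1.88 (1.49 to 2.39). It was called from summed TPM (2.31) but not with the transcript length offset (1.97). The remaining Toll-like receptors are named here after their values were seen. Tlr3, which senses double-stranded RNA (0.860, 0.623 to 1.20), and Tlr1, a partner of Tlr2 (0.919, 0.369 to 2.51), were measured and not called. Tlr6, the other partner of Tlr2, held 2 reads in each control file and 10.01 and 12.5 in sleep deprivation, a ratio of 6.12 (1.42 to 58.8), but had too few reads to be measured. Tlr9 held 0 reads in control and 4 in each sleep-deprived file, Tlr8 held 0 and 2, Tlr5 held 2 in every file, Tlr11 held 1 and 0, and Tlr12 held 4 and 0. These rare receptors thus lay on both sides of control, at read numbers that allow no call.

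All 22 adaptors and kinases were measured, and 4 were called higher and 0 lower, beside 4.27% and 5.64% of all measured genes. Sigirr, a receptor that dampens Toll-like receptor signals, had a ratio of 2.43 (1.26 to 4.94), and the adaptor Pik3ap1 a ratio of 2.36 (1.36 to 4.48). Ticam2, an adaptor of Tlr4, was at 3 reads in each control file and 19 in each sleep-deprived file, a ratio of 6.74 (1.98 to 35.6), and 14.5% of its exon bases overlap Tmed7. Irak3, a brake on the pathway, was at 3 reads in each control file and at 11 and 13 in sleep deprivation, a ratio of 4.26 (1.15 to 23.5). Both genes counted as measured only through the sleep-deprived library. The call of Irak3 ended without sleep-deprived file 2 (3.90) and with the transcript length offset (3.48). The abundant kinase genes Irak1 (0.859, 0.817 to 0.903) and Tbk1 (0.723, 0.672 to 0.777) were below control and within 2-fold.

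Of 20 genes of the IkB kinases, further subunits and inhibitors, 19 were measured. None was called in either direction, beside 4.27% higher and 5.64% lower of all measured genes. Chuk, which encodes an IkB kinase, had a ratio of 1.93 (1.80 to 2.08), and was called from summed TPM (2.69) and with the transcript length offset (2.31). Tax1bp1, a helper of A20, had a ratio of 0.784 (0.744 to 0.826). Rnf11, another part of the A20 complex, stood at the 2-fold line with a ratio of 0.5001 (0.466 to 0.536), and was named after its value was seen. Of the 3 interferon regulatory factors, Irf5 was called higher (2.62, 1.53 to 4.43), with 14.1% of its exon bases shared with Tnpo3. Irf3 had a ratio of 1.67 (1.55 to 1.80), called from summed TPM (2.25) but not with the transcript length offset (1.94). The ratio of Irf7 was 0.633 (0.447 to 0.899).

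**Figure D4:**
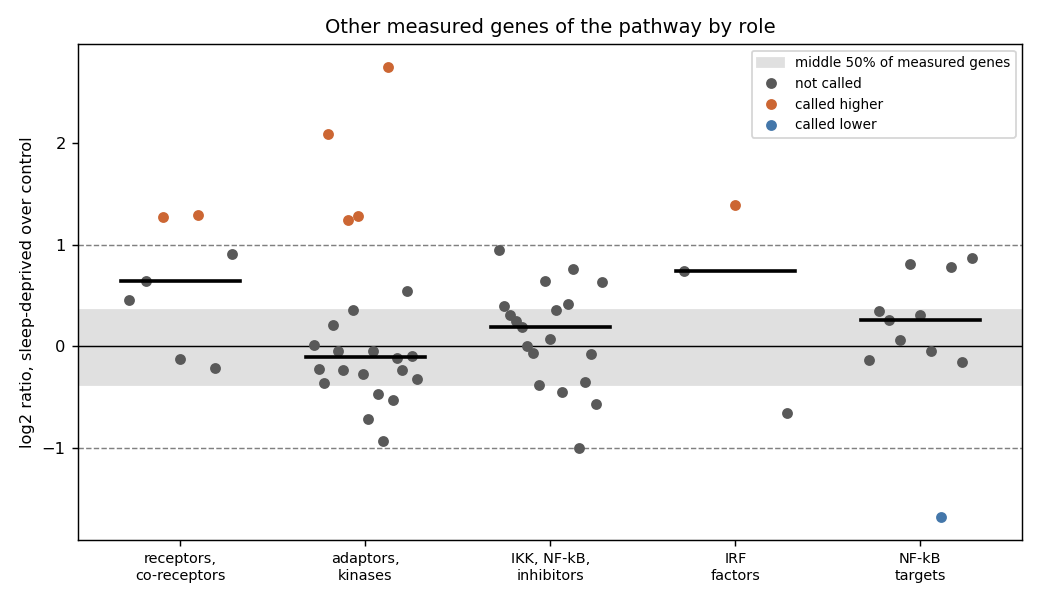
Log2 ratio of sleep-deprived over control for the 62 other measured genes of the pathway by role, with bars for medians, dashed lines at 2-fold and a grey band for the middle 50% of measured genes. The called genes are 2 receptors, 4 adaptors or kinases, 1 interferon regulatory factor and, lower, the target Tnfaip2.

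Of 24 NF-kB target genes, 11 were measured, 0 were called higher and 1 was lower, beside 4.27% and 5.64% of all measured genes. At those shares few calls are to be found among 11 genes in either direction, so the counts are a description. Tnfaip2 was estimated at 55 and 44 reads in control and 14 and 15 in sleep deprivation, a ratio of 0.312 (0.152 to 0.548). Its ratio was 0.117 from summed TPM and 0.0936 with the transcript length offset. The abundant targets Sod2, a mitochondrial antioxidant enzyme gene (0.969, 0.908 to 1.03), and Gadd45b, a stress response gene (1.20, 0.938 to 1.53), were within 2-fold. The adhesion receptor genes Icam1 (1.04, 0.579 to 1.96) and Vcam1 (0.899, 0.652 to 1.22), named after their values were seen, also were not called.

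The 13 unmeasured targets, most of them inflammatory cytokine and chemokine genes, held at most 7 reads in any file, and some are named here after their values were seen. Tnf was estimated at 5 reads in each control file and 0 in each sleep-deprived file, and Il1b at 1 and 0. Il6, Il12b and Ccl2 held 0 reads in all 4 files. A library under 3 reads was set to that floor for the call, which is 0.199 CPM in control and 0.212 CPM in sleep deprivation. A count of 0 is therefore not a measured absence. At this depth no difference in these genes was detectable, which does not show that there was none. The cytokine genes Il1a and Csf1 were measured and not called. Il1a held 8 and 9 reads in control and 14 in each sleep-deprived file, a ratio of 1.75 (0.729 to 5.13). Csf1, which encodes a growth factor of microglia, held 304 and 300 reads in control and 364 and 357 in sleep deprivation, a ratio of 1.27 (1.09 to 1.48).

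Microglial markers moved with the receptor genes. Of 16 microglial markers, 12 were called higher and 0 lower, with a median ratio of 2.68 and a summed level of 165 CPM in control and 458 CPM in sleep deprivation. The ratios of Cd14, Tlr2 and Tlr7 lay within the range of these markers (0.997 to 6.46), with 3, 5 and 6 of the 16 markers above them, while 12 of 16 lay above Myd88 and 15 of 16 above Nfkb1, Rela and Nfkbia. In RNA recovered from tagged ribosomes of whole hippocampus, more microglia, more microglial RNA recovered by the pulldown and more RNA per cell cannot be told apart. Markers of other cells differed between the libraries too, as given below, and their part in the microglial ratios was not tested. Per 1000 reads of the 16 markers, Cd14 had 4.02 and 4.05 reads in control and 7.70 and 7.74 in sleep deprivation, a ratio of 1.91 (0.959 to 4.23). On the same scale the ratio was 1.32 (0.494 to 6.29) for Tlr2 and 1.04 (0.509 to 2.31) for Tlr7, and their intervals, like that of Cd14, held 1. For Myd88 the ratio was 0.710 (0.534 to 0.952). For Nfkb1, Rela, Relb, Nfkbia and Tnfaip3 it lay between 0.325 and 0.496, but these genes are also expressed outside microglia, and RNA of other cell types was present in the libraries.

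**Figure D5:**
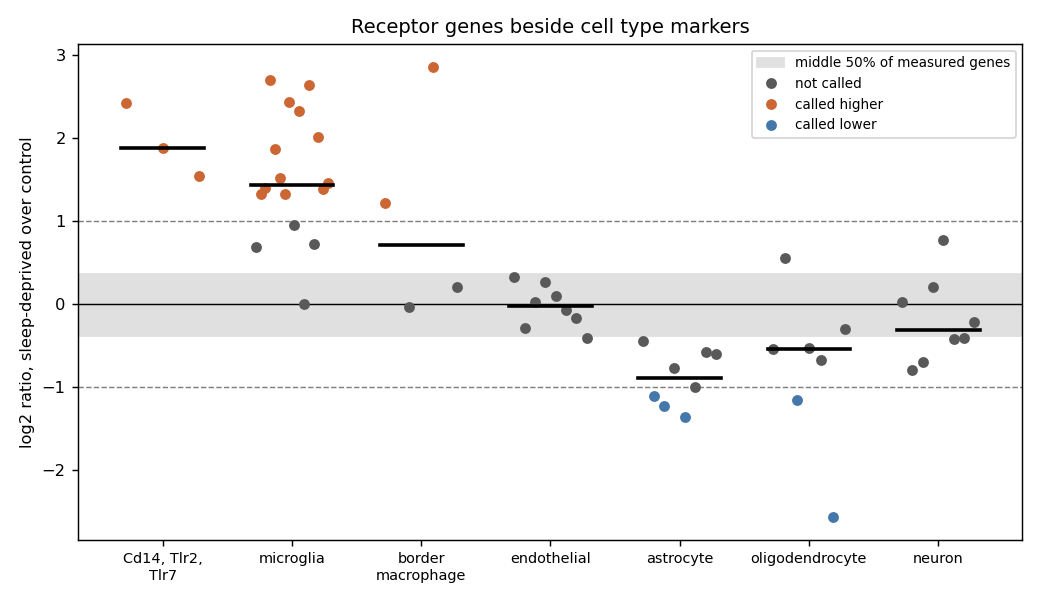
Log2 ratio of sleep-deprived over control for Cd14, Tlr2 and Tlr7 beside the measured markers of 6 cell types, with bars for medians, dashed lines at 2-fold and a grey band for the middle 50% of measured genes. The receptor genes and 12 of 16 microglial markers lie above 2-fold, and the astrocyte markers lie below 0.

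Among markers of other cells, only 2 border macrophage markers and Ly6c2 were called higher. Of 7 border macrophage markers 4 were measured and 2 called higher, beside 4.27% of all measured genes. Those were Cd163 (2.31, 1.45 to 3.63) and Lyve1 (7.24, 2.15 to 80.8). Mrc1 (1.15, 0.714 to 1.87) and F13a1 (0.970, 0.593 to 1.54) were not called. The list summed to 8.40 CPM in control and 11.8 CPM in sleep deprivation. Of the 3 unmeasured markers, Ms4a7 held 8 and 9 reads in control and 0 in sleep deprivation. Cbr2 held 10 and 9 against 8 and 7, and Pf4 held 1 against 4 per file. The 9 monocyte and neutrophil markers, cells in which Cd14 and Tlr2 are also expressed, summed to 2.69 and 2.26 CPM, and 2 were at 0 in control and 4 in sleep deprivation. Of these, Ly6c2 was called higher at 3 and 2 reads in control and 16 and 14 in sleep deprivation, and Ly6g was called lower at 18 and 19 reads against 0. Ly6c2, like Lyve1 above, counted as measured only through the sleep-deprived library, and Ly6g only through the control library. Each of these genes could therefore hardly be called in the other direction. The neutrophil genes S100a8 and S100a9 held 1 or 2 reads per file, and Camp was at 0 in all 4 files. The 8 lymphocyte markers summed to 1.19 and 1.66 CPM, with 3 at 0 in each library. The 8 endothelial markers were at 164 and 160 CPM with 0 called, the 8 astrocyte markers at 1628 and 856 CPM with 3 called lower, the 7 oligodendrocyte markers at 3501 and 2190 CPM with 2 called lower, and the 8 neuronal markers at 2585 and 2180 CPM with 0 called. The part of these cells in the values of the 10 genes was not tested.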

How the data were processed

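The authors deposited, per the file headers, estimated counts (NumReads) and TPM for 116546 transcripts per file. The submitters' processing notes name Salmon, DESeq2 and mm10. No Salmon version, annotation or strand setting is named in the sources used here. By ID without version, transcripts were joined to GENCODE M21 (GRCm38; 115898, or 99.4%), leaving out 0.339% to 0.366% of reads. Estimated counts were summed per gene, rounded and averaged over the 2 files of a group. They were scaled by TMM in edgeR 4.0.16 (R 4.3.3) to CPM. Genes kept by filterByExpr (minimum count 10) are called measured. Intervals are conditional Clopper-Pearson 95% intervals (scipy 1.17.1), and a library under 3 reads was set to 3 for the call. The rule was tested on simulated data that held counting error only. That test covers neither differences between mice nor error in how Salmon divided the reads. Transcript lengths enter as the deposited effective lengths in bases.

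The 10 genes and all lists were chosen with earlier results of these data known. Named are the 10 genes, every called pathway gene, the 2 most abundant by mean TPM in each role, and transcripts with at least 10% of a gene's TPM. No gene is named for a pattern like that of the 10, since 2 libraries give no pattern. Alternatives were other scalings, no filter, summed TPM, a length offset, a 1.5-fold line and leaving out each file.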

Additional observations from a re-analysis of the deposited data

How the results depend on the processing

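With the other scalings, filters, units and fold line tried, Cd14, Tlr2 and Tlr7 were called higher each time, with 3 or 4 of the 10 genes called higher and 0 lower, and the fourth was Myd88 in each case. Leaving out each file in turn gave 3 to 3 genes higher, which shows no stability between mice, since the files of a group are nearly the same. With a 1.5-fold line, 14 pathway genes were higher and 5 lower, as were 1855 and 2026 of all measured genes. From summed TPM, 13 pathway genes and 1329 of all measured genes were higher. Pathway genes called lower numbered 2 with library totals and with upper-quartile scaling, and 1 to 2 without each file in turn, because Rnf11 crossed the 2-fold line (0.483 with library totals, 0.493 with upper-quartile scaling, 0.4997 without sleep-deprived file 1 and 0.4999 without file 2). Transcripts called higher numbered 8 or 9, and 2 were lower. Summed TPM moved the median log2 ratio of all genes to 0.22, and the cause was not tested. Tlr4 had too few reads for a TPM ratio. No paired analysis was possible because the 2 files of a group counted as 1 library. For the same reason the edgeR quasi-likelihood and DESeq2 tests over 4 files and the replicate block were not run. Depth limits Cd14, Tlr2, Tlr4 and Tlr7 to 12 or fewer reads per control file.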
